A study of Mus musculus with 4 samples.

Results

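The guanylate-binding proteins (GBP) and the immunity-related GTPases (IRG) are large GTP-hydrolysing enzymes of cell-autonomous defence. Of the 31053 genes measured, 10 were taken by symbol: the 6 GBP genes Gbp2, Gbp3, Gbp4, Gbp5, Gbp6 and Gbp7, and the 4 IRG genes Irgm1, Irgm2, Igtp and Iigp1. All 10 were found in the gene table, and they held 56238 unique molecular identifiers (UMIs, 1 per captured RNA molecule) in the cells kept.

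Tumour-draining lymph node cells were profiled singly with 10x Genomics 3' version 3 chemistry in work on blockade of the kinase BTK and of the IDO pathway and its effect on inflammatory dendritic cells. All 4 mice were C57BL/6J and carried B16F10 tumours, a transplantable melanoma line, in both thighs. In the control group 2 mice were left untreated. In the treated group 2 mice had indoximod, which acts on the IDO pathway, in their drinking water at 2 mg/ml from day 9. The same 2 mice received the BTK inhibitor ibrutinib by intraperitoneal injection (350 ug/day) and, on day 10, 150 mg/kg of cyclophosphamide, an alkylating drug. Inguinal nodes of every mouse were taken 48 hours after the cyclophosphamide. The cell barcodes carry only library numbers 1 to 4, and no source read here says which mouse or group a number stands for. Treated and control mice were therefore not compared, and no library is a replicate of a group. The values of the 4 libraries are given one by one, and their spread holds treatment, mouse and preparation together.

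Interferon-gamma binds a receptor of 2 chains, Ifngr1 and Ifngr2, which signals through the kinases Jak1 and Jak2. Target promoters carry GAS elements and the related ISRE elements. ISRE elements are bound by Irf1, itself a target, and type I interferons also act through them. GBP proteins assemble on vacuoles and bacteria inside the cell and feed into inflammasome activation, whereas Iigp1 is an effector IRG that damages vacuole membranes and Irgm1, Irgm2 and Igtp are regulatory IRG proteins that keep the effectors off the cell's own membranes. In lymph nodes both families are read as signs of interferon exposure in lymphocytes and myeloid cells alike.

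Most members lie in clusters on the mm10 build (GENCODE vM21 annotation, all protein-coding), and Iigp1 lies apart on another chromosome. Gbp5, Gbp7, Gbp3 and Gbp2 stand in a row on the plus strand of chromosome 3, between 142493978 and 142638008, a span of 144 kb. Gbp4 (105115767 to 105139586) and Gbp6 (105270702 to 105293698) lie on the minus strand of chromosome 5. Irgm1 lies on the minus strand of chromosome 11 (48861968 to 48871683). Further along the same chromosome, Igtp (58199556 to 58207591) and Irgm2 (58199618 to 58222782) overlap on the plus strand, so how their UMIs were divided is uncertain. Because 3' counts come from transcript ends, the last 500 bases of each member were compared with all other transcripts: 77.8% of the 50-base words of Gbp6 and 19.4% of those of Gbp4 also occur in other genes of the chromosome 5 cluster such as Gbp10, so both counts, Gbp6 above all, are uncertain.

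Promoter windows of 300 bases, 250 before to 50 after the annotated start, were read from RefSeq (GRCm38.p6) for 7 of the 10 members. Gbp4 and Gbp6 had no entry. The chromosome of Iigp1 was left out of the search, for members and background windows alike, so Iigp1 was not looked up. On both strands 2 motifs were searched, GAS as TTCNNNGAA and ISRE as TTTC, any 2 bases and TTTC (GAAA, any 2 bases and GAAA when it lies on the opposite strand). Overlapping matches were counted. An ISRE match was found in 7 of the 7 members, against 3.44% of all 32851 windows. A GAS match was found in 4 of the 7 (Gbp5, Gbp7, Irgm2 and Igtp), against 8.30% of all windows, and these 4 held both motifs in 1 window, against 0.454% of all windows. The stretches holding the matches are shown because the members share this feature although their levels across cell classes differ. Motif matches stand in capitals, each sequence reads 5′ to 3′ on the gene's own strand, and Gbp2 and Irgm1 are shown by the matching site alone.
Gbp5 (chr3:142496684-142496899, plus strand): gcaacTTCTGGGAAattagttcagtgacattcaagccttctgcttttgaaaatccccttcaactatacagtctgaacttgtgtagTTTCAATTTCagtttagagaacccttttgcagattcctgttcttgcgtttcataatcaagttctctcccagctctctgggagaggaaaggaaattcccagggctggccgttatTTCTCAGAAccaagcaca
Gbp7 (chr3:142530216-142530335, plus strand): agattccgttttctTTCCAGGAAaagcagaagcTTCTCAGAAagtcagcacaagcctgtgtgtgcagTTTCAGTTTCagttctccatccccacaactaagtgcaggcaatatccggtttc
Gbp3 (chr3:142559924-142560025, plus strand): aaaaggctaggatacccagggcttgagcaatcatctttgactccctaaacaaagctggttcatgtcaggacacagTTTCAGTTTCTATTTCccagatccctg
Gbp2 (chr3:142620594-142620623, plus strand): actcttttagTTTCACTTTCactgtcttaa
Irgm1 (chr11:48871428-48871457, minus strand): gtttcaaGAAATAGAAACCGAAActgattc
Igtp (chr11:58199436-58199555, plus strand): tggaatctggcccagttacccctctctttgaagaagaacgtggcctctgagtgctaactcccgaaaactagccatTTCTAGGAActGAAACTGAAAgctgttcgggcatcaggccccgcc
Irgm2 (chr11:58214857-58214976, plus strand): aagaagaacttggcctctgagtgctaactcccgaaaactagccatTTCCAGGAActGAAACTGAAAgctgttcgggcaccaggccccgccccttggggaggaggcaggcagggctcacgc
The Igtp and Irgm2 windows share an identical run of 61 bases. It begins 11 bases before the start in Igtp and 41 bases before it in Irgm2, and extends past the start in both. The run holds none of the marked matches, and the GAS matches of the 2 genes differ in a letter. Gbp3 has 2 windows, and the second held no match. A match is a description of the letters and not a shown binding site.

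After leaving out barcodes with fewer than 300 genes or more than 10% mitochondrial UMIs, 26096 cells remained (5667, 5758, 6335 and 8336 in libraries 1 to 4) with a median of 5358.5 UMIs. Cells were put into classes by UMI counts of marker genes. Mature dendritic-like cells needed at least 2 UMIs of Fscn1 and 2 of Ccr7, Ccl22 or Cacnb3, monocyte-like cells 2 of Lyz2 and 2 of Ccr2, Csf1r, Cd209a or Sirpa, and regulatory T-like cells Cd4 and 1 of Foxp3. In all 17649 cells (67.6%) fell into 1 class. Of the 8438 cells of no class, 81.1% carried at least 2 Cd3 UMIs. The 14 classes with at least 20 cells were used, named for their markers and therefore "-like" throughout: B (8088 cells), germinal centre B (282), CD4 T (1945), CD4 T with Izumo1r (757), regulatory T (192), CD8 T without Ccl5 (4876), CD8 T with Ccl5 (600), gamma-delta T (215), NK (67), mature dendritic cell (372), type 1 dendritic cell (32), monocyte and type 2-like dendritic cell (72, called monocyte-like below), plasmacytoid dendritic cell (57) and macrophage (69). Cd79a, itself a marker used in the gates, was found in 99.8% of B-like cells, in 4.57% of mature dendritic-like and in 5.97% of NK-like cells. Macrophage-like cells were shallow, with a median of 1502 UMIs against 9382 in mature dendritic-like and 8399.5 in monocyte-like cells, and 11.6% of them held a Cd79a UMI. Across libraries 86 barcode sequences recurred. Germinal centre B-like cells came from libraries 1 and 2 (128 and 137 cells), with 9 and 8 in libraries 3 and 4.

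Levels are CPM, the UMIs of a gene divided by all UMIs of the class and scaled to 1e6. A molecule counts once whatever its length, so the levels of different genes may be set side by side, as far as capture is equal. A library's level is given where it held at least 10 cells of the class, and medians below are over those libraries. Summed over the 10 members, the median level was highest in macrophage-like cells, 1042 CPM (1262, 679, 1014 and 1071 from library 1 to library 4), and next in monocyte-like cells, 927 CPM (433, 885, 1191 and 968). Regulatory T-like (511 CPM), gamma-delta T-like (482 CPM), mature dendritic-like (424 CPM) and CD8 T-like cells without Ccl5 (419 CPM) followed. Germinal centre B-like cells stood lowest at 35 CPM, below plasmacytoid dendritic-like cells at 221 CPM and B-like cells at 226 CPM. Of the 12 neighbouring pairs in this order of 13 classes, 10 overlapped between libraries, and the order within them is not resolved. The pairs without overlap were CD4 T-like cells with Izumo1r above CD8 T-like cells with Ccl5, and plasmacytoid dendritic-like above germinal centre B-like cells.

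**Figure D1:**
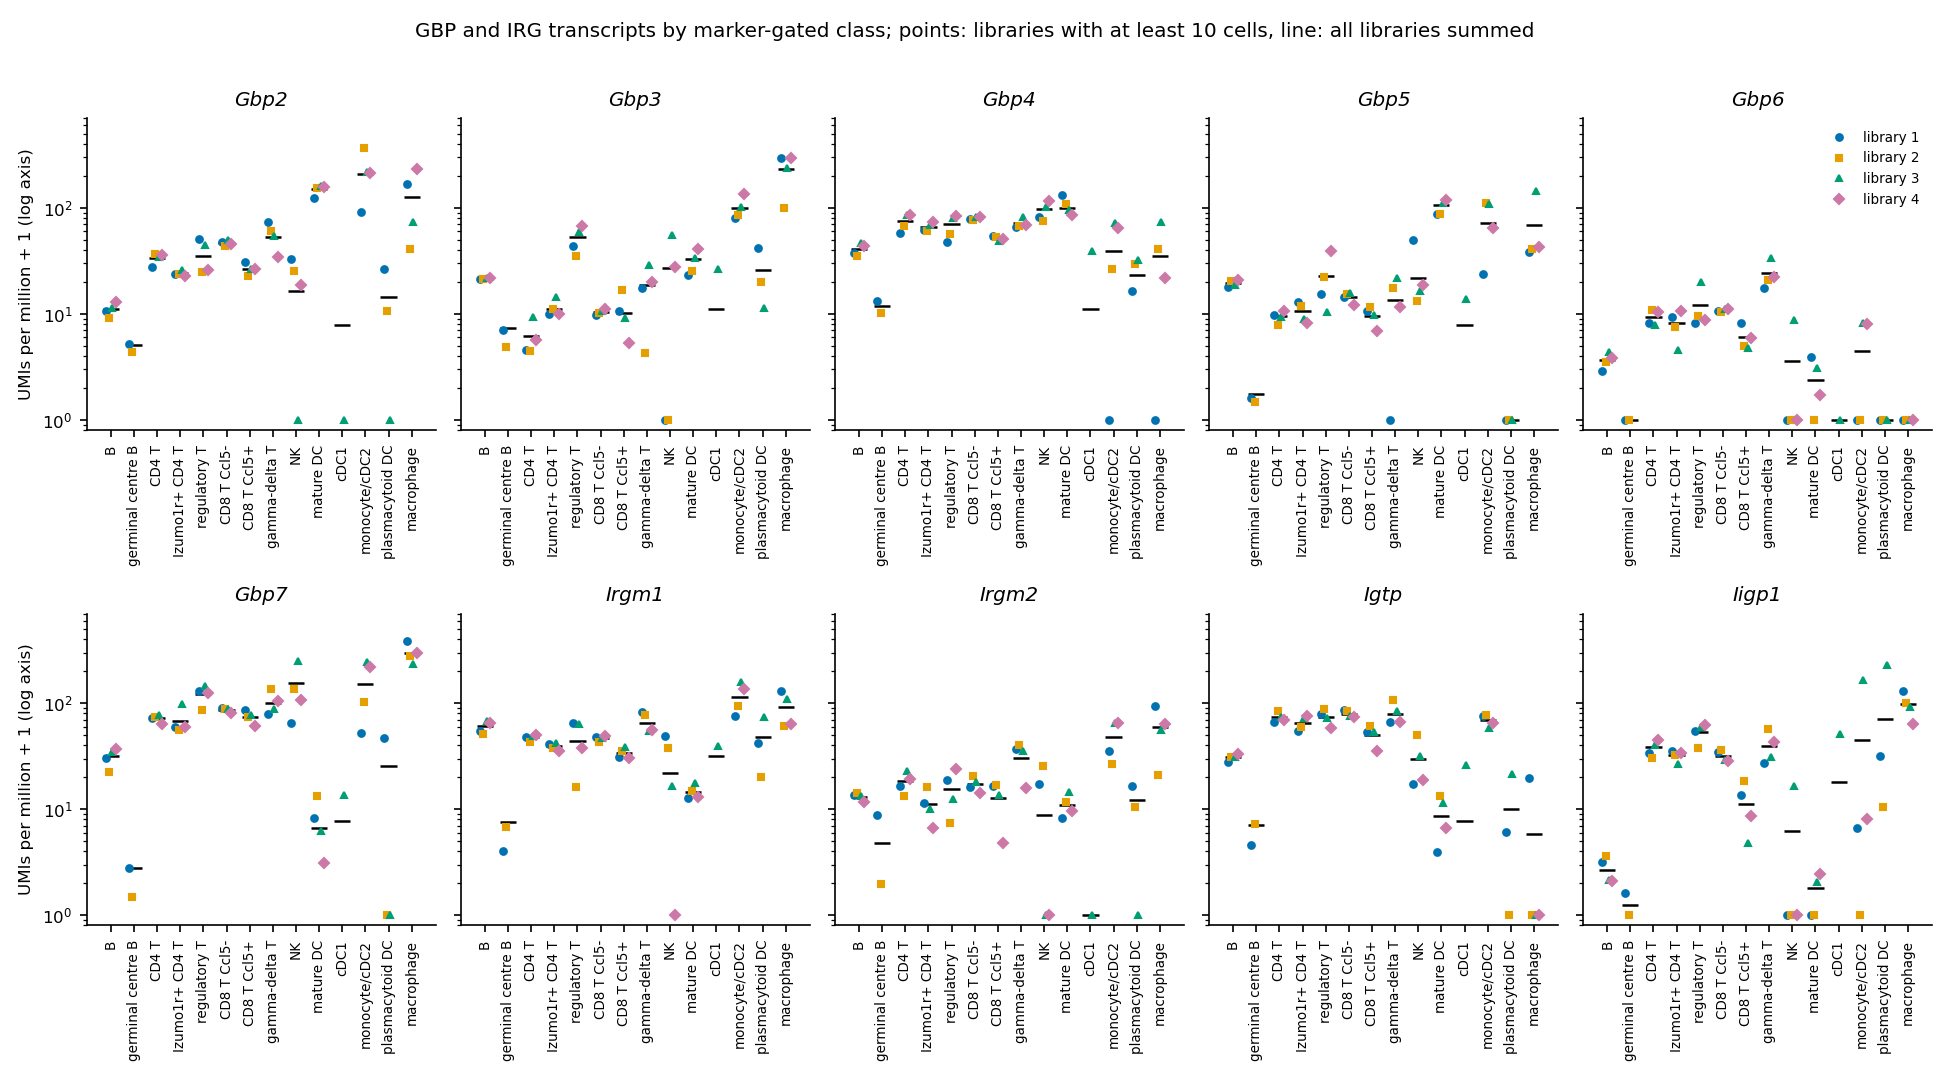
Level of each of the 10 members by marker-gated class, in CPM plus 1 on a log axis. Points are libraries with at least 10 cells of the class and lines are all libraries summed. Gbp7 and Igtp are low in the mature DC column where Gbp2, Gbp4 and Gbp5 are high, and Iigp1 is low in the B column.

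The members did not peak in the same class. Among the GBP genes, Gbp2, which coats pathogen vacuoles, had its highest median in monocyte-like cells (214 CPM) and its next in mature dendritic-like cells (154 CPM). Gbp5, a promoter of NLRP3 inflammasome assembly, was highest in mature dendritic-like cells (99.0 CPM), as was Gbp4 (101 CPM). Gbp3 (265 CPM) and Gbp7 (287 CPM) were highest in macrophage-like cells, and Gbp6 in gamma-delta T-like cells (20.4 CPM, above the 9.79 CPM of CD8 T-like cells without Ccl5 with no library overlap). Among the IRG genes, Irgm1 was highest in monocyte-like cells (114 CPM), Irgm2 (58.7 CPM) and Iigp1 (95.2 CPM) in macrophage-like cells, and Igtp in CD8 T-like cells without Ccl5 (79.8 CPM). Between neighbouring classes in each gene's order, libraries overlapped in 12 of 12 pairs for Gbp2 and Irgm2, and in 9 to 11 of 12 for the other 8 members.

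The balance between the families was the most one-sided in mature dendritic-like cells. The 6 GBP genes made up 92.5% of member UMIs there (95% Clopper-Pearson interval 91.1 to 93.8%, counting error only), with 94.4%, 91.2%, 90.6% and 93.6% in libraries 1 to 4. In B-like cells the share was 54.4% and in CD4 T-like cells 53.5%, with every library between 51.9% and 55.4%. Monocyte-like cells lay between them at 67.7%, spread from 56.6% to 77.9% over libraries, and NK-like cells at 83.4%, spread from 69% to 94.1%. Only the NK-like range reached into that of mature dendritic-like cells, among classes with at least 2 libraries given.

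**Figure D2:**
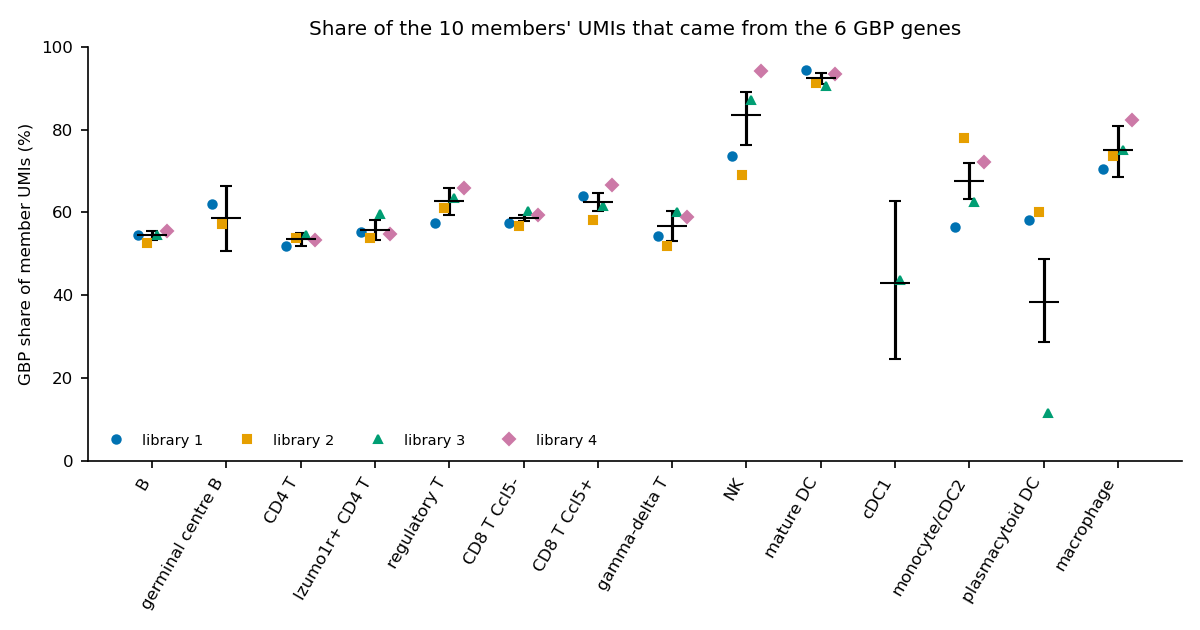
Share of the 10 members' UMIs that came from the 6 GBP genes, in percent, by class. Points are libraries with at least 10 cells, the bar is all libraries summed with its 95% counting interval. Mature DC stands at 92.5%, and the B and T classes between 53.5% and 62.8%.

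Classes were then compared within each library. A library counted for a gene if it held 10 or more of its UMIs in the 2 classes together. A call, higher or lower, required 3 or more counting libraries, all of them with a CPM ratio of 1.5-fold or more and all in 1 direction. This is no significance test, and the share of all tested genes that it called is printed beside each count. A member can be tested through the class where it is high alone, so tested members are not a neutral sample of the family.

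Mature dendritic-like cells, the Ccr7- and Fscn1-positive migrating form, carried Gbp2, Gbp4 and Gbp5 at levels not called different from those of monocyte-like cells, and low levels of Gbp7 and the IRG genes. Against monocyte-like cells 8 of the 10 members could be tested, 0 were called higher and 5 lower (Gbp3, Gbp7, Irgm1, Irgm2 and Igtp), where 12.3% of all 6923 genes tested were called higher and 15.6% lower, 28% in all. The median log2 ratio was −1.93 over the 8 members and −0.21 over all genes tested. Scaling by edgeR's TMM moved the median of all genes by 0.49 and turned the split from 852 higher and 1083 lower genes to 1351 and 678. Under it the 5 lower members stayed called, Gbp4 was called higher as well (log2 ratio 1.87), and the uncalled Gbp2 went from −0.46 to 0.03.

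Gbp7, a GBP linked to oxidative and autophagic killing, showed the largest called gap. Its level was 7.34, 12.2, 5.25 and 2.13 CPM in mature dendritic-like cells of libraries 1 to 4. In monocyte-like cells it was 51.3, 102, 244 and 219 CPM. The groups did not overlap, and the summed level was 26.4-fold lower (log2 ratio −4.72, 95% counting interval −5.48 to −4.02). Irgm1 stood at 11.7, 13.8, 16.8 and 12.1 CPM in mature dendritic-like cells. In monocyte-like cells it stood at 74.0, 93.7, 158 and 134 CPM, again without overlap (log2 ratio −3.06). Igtp, its regulatory relative, reached 2.94, 12.2, 10.5 and 5.69 CPM against 74.0, 76.6, 57.4 and 63.6 CPM (log2 ratio −3.16). Irgm2 gave a log2 ratio of −2.23 and Gbp3 of −1.64, both called lower.

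The other GBP genes did not follow. Gbp2 stood at 123, 152, 160 and 157 CPM in mature dendritic-like cells and at 91.1, 366, 215 and 212 CPM in monocyte-like cells, so the ranges overlapped. In monocyte-like cells of library 2, 25 of its 43 UMIs came from 1 cell. Gbp4 stood at 131, 107, 95.5 and 83.9 CPM against 0, 25.5, 71.8 and 63.6 CPM. Its ranges did not overlap, but the ratio stayed under 1.5-fold in libraries 3 and 4 and it was not called (log2 ratio 1.38). Gbp5 stood at 86.6, 85.7, 111 and 119 CPM against 22.8, 111, 108 and 63.6 CPM and was not called. Iigp1 was not tested, with 3 UMIs in mature dendritic-like and 25 in monocyte-like cells, 19 of these in 1 cell of a single library, and Gbp6 was not tested, with 5 and 2 UMIs.

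Of the 13 tested genes of interferon-gamma, its receptor and its signalling, 0 were higher and 5 lower in mature dendritic-like cells, among them the receptor chain Ifngr1 (23.0 against 622 CPM), the phosphatase gene Ptpn6 (log2 ratio −2.62) and Stat2 (log2 ratio −2.53). Irf1 was not called, at 341 CPM against 118 CPM. Of 22 other interferon-gamma response genes 4 were higher, among them the proteasome activators Psme1 and Psme2 (log2 ratios 1.19 and 1.84), and 4 lower, among them Cxcl10 (log2 ratio −7.87), Cxcl9 (−4.47) and the MHC class II activator Ciita (−3.68). Of 22 type I interferon response genes 18 were lower, with a list median of −4.71, led by Ifi204, Irf7 and Ifit2. Of 4 other GTPases Gbp8 was higher (log2 ratio 2.42), and 9930111J21Rik2 and Ifi47 were lower. The mature dendritic marker list summed to 6938 CPM in its own class and 136 CPM in monocyte-like cells, and the monocyte list to 117 and 15199 CPM. Most genes of both lists were also used to gate these classes, so the sums cannot show how far the classes were mixed.

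**Figure D3:**
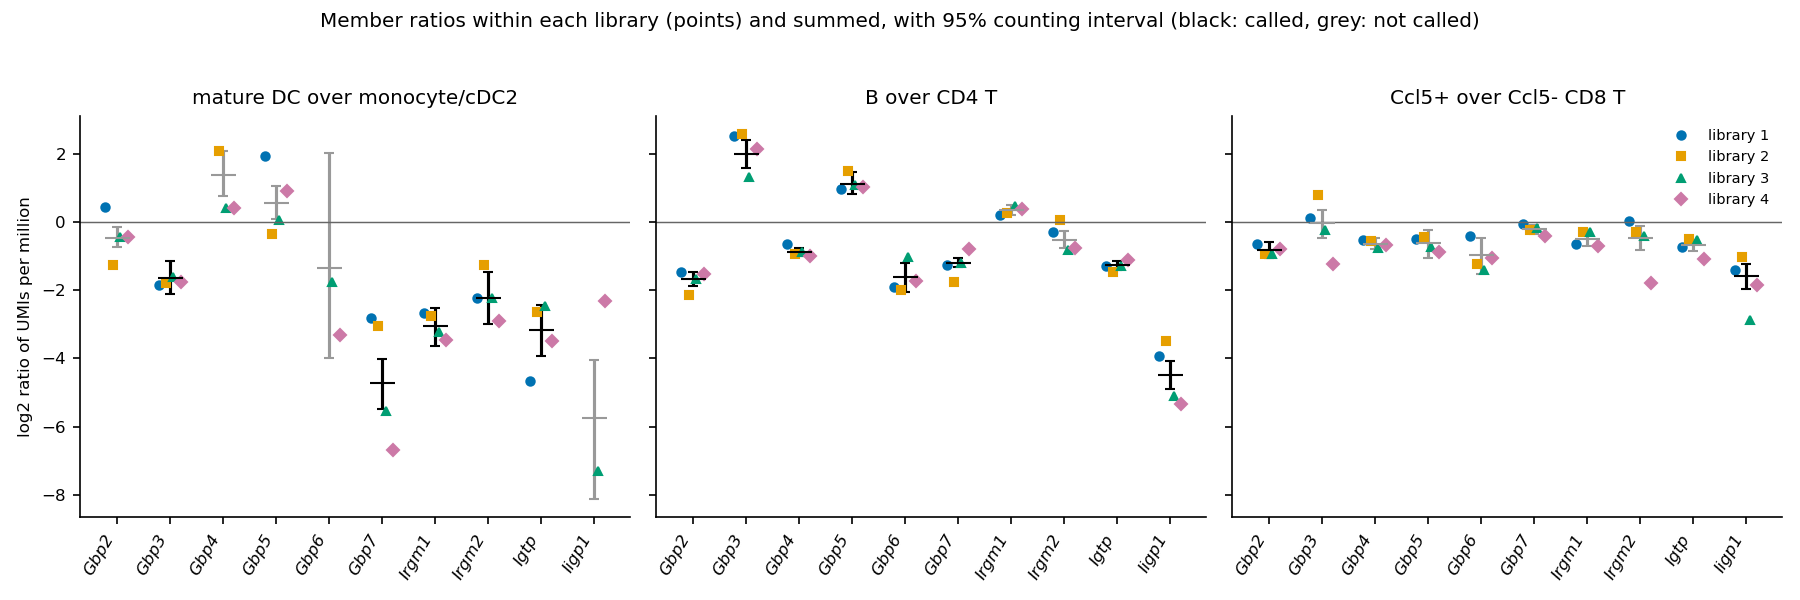
Log2 ratio of CPM for each member in 3 class comparisons, within each library (points) and summed over libraries (bars, with 95% counting interval, black where called and grey where not). A library with 0 UMIs in 1 class has no point. In the first panel Gbp7, Irgm1, Irgm2 and Igtp lie below 0 in every library, and in the second Iigp1 stands at −4.48.

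Some members differed between libraries within monocyte-like cells. Gbp7 was low in libraries 1 and 2 and high in libraries 3 and 4, at 51.3, 102, 244 and 219 CPM. The monocyte gene Ly6c2 showed 444, 145, 3352 and 3767 CPM, and Cd209a, a gene of type 2-like dendritic cells and their monocyte-derived kin, showed 57.0, 341, 0 and 0 CPM. Libraries that were low in Ly6c2 were thus low in Gbp7, with 15 to 20 cells each, and the part of cell make-up in the member levels was not tested. Igtp did not show this order, at 74.0, 76.6, 57.4 and 63.6 CPM. Iigp1 rested on single cells: it stood at 5.70, 0, 165 and 7.07 CPM, and without the cell that held 19 of its 25 UMIs the summed level went from 43.6 to 10.7 CPM.

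**Figure D4:**
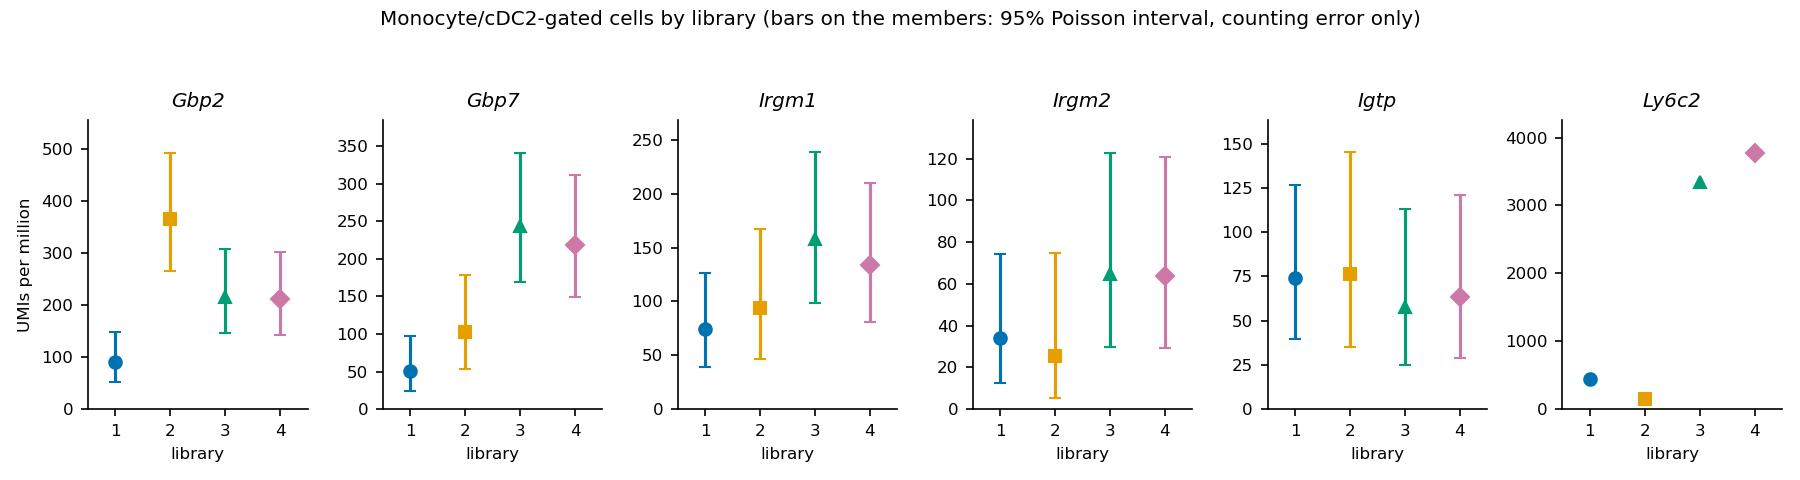
Level in CPM of 5 members and Ly6c2 in monocyte-like cells of each library, with 95% Poisson intervals on the members. Gbp7 and Ly6c2 are higher in libraries 3 and 4 than in 1 and 2, and Igtp is level across the 4.

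Macrophage-like cells, marked by the complement genes C1qa, C1qb and C1qc, held the highest summed level but few UMIs (209 over all members). Against monocyte-like cells 6 members could be tested and 0 were called, where 6.13% of 2757 genes tested were called higher and 12.8% lower, 18.9% in all (169 and 353 genes, or 122 and 467 with TMM scaling, which moved the median by −0.23). Gbp3 was 297, 99.8, 235 and 294 CPM in macrophage-like and 79.7, 85.1, 100 and 134 CPM in monocyte-like cells. Its ratio exceeded 1.5-fold in 3 libraries and not in library 2, without which it was called (log2 ratio 1.41). Igtp had 1 UMI in macrophage-like cells, 4.83 CPM with a counting interval of 0.122 to 26.9 CPM, against 39 UMIs and 68.0 CPM in monocyte-like cells, and was too sparse for the rule. Iigp1 was 130, 99.8, 90.6 and 63.0 CPM in macrophage-like cells, above every library of regulatory T-like cells, its next class. These levels rest on few UMIs, as Iigp1 held 9.57% of the 209, and counting error was not set against the gap. Of 23 type I interferon response genes 14 were lower than in monocyte-like cells and 0 higher. Of 19 other interferon-gamma response genes 5 were lower, Cd274, Parp14 and Casp4 among them, and 0 higher. Of 12 receptor and signalling genes 1 was higher, Irf8, and 0 lower, and of 4 other GTPases 1 was higher and 0 lower. The B cell marker list summed to 106 CPM in macrophage-like cells and 40.1 CPM in monocyte-like cells, and the mature dendritic list to 1006 CPM (37.1, 2754, 1141 and 105 in libraries 1 to 4) and 136 CPM. Their part in the member levels was not tested.

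Type 1 dendritic-like cells (32 cells, with only library 3 above 10) held 28 member UMIs. Against mature dendritic-like cells 5 members were tested, with Irgm1 called higher and Gbp2, Gbp4 and Gbp5 lower, where 9.15% of 6426 genes tested were higher and 18.2% lower, 27.3% in all (588 and 1167 genes, or 261 and 1775 with TMM scaling, a median shift of −0.48). These calls rest on 9, 2, 3 and 2 UMIs in type 1 dendritic-like cells. The counting intervals of the log2 ratio were −7.52 to −2.61 for Gbp2, −5.57 to −1.73 for Gbp4 and −7.00 to −2.09 for Gbp5. For Irgm1 the interval was −0.03 to 2.21, and its call was lost under TMM scaling, where Gbp3 was called lower instead, as it was without library 3 (−2.77). Plasmacytoid dendritic-like cells had 0 Gbp5 and 0 Gbp6 UMIs, for which 3 counts would give 6.74 CPM. Their Iigp1 level of 69.6 CPM fell to 25.2 CPM without 1 cell that held 20 of the 31 UMIs. No member could be tested between these 2 classes, where 18.6% of 2094 genes tested were higher and 6.88% lower, 25.5% in all.

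B cells make antibodies and CD4 T cells help them, and 8 of 10 members were called between the classes of these lymphocytes. Of the 10 tested, 2 were called higher in B-like cells and 6 lower, where 14.6% of 10872 genes tested were higher and 9.92% lower, 24.6% in all. The median log2 ratio was −1.04 over the members and 0.10 over all genes tested.

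Iigp1, the effector IRG, was nearly confined to the T cell side of this pair. It stood at 2.17, 2.61, 1.15 and 1.09 CPM in B-like cells and at 33.0, 29.6, 39.3 and 44.3 CPM in CD4 T-like cells, 22.4-fold lower in sum (log2 ratio −4.48, counting interval −4.91 to −4.09). A UMI of Iigp1 was found in 0.556% of B-like and 13% of CD4 T-like cells, and in 0.213% of 7980 and 5.10% of 1943 cells when each was thinned to 1500 UMIs. The ranges were far apart in every library. Gbp2 was 9.57, 8.11, 10.4 and 12 CPM against 26.7, 35.6, 33.2 and 35 CPM (log2 ratio −1.68). Lower calls of Gbp6 (−1.63), Igtp (−1.27), Gbp7 (−1.19) and Gbp4 (−0.89) completed the set. Irgm1 (0.35) and Irgm2 (−0.53) were not called.

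Gbp3 and Gbp5, neighbours of Gbp7 and Gbp2 in the chromosome 3 row, went the other way. Gbp3 was 20.3, 20.3, 20.7 and 20.6 CPM in B-like cells against 3.58, 3.44, 8.39 and 4.68 CPM in CD4 T-like cells (log2 ratio 1.98). Gbp5 was 17.1, 19.4, 17.7 and 19.7 CPM against 8.75, 6.87, 8.39 and 9.68 CPM (log2 ratio 1.12). Members of 1 chromosomal row were thus called in both directions in the same pair of classes. Of the other lists, 4 of 14 receptor and signalling genes were higher in B-like cells and 2 lower, led by Irf8 (log2 ratio 5.74) and the feedback inhibitors Socs3 (−1.98) and Socs1 (−1.46). Of 8 other GTPases Irgc1 was higher (2.36), and Tgtp1 (−4.53) and Gbp8 (−3.37) were lower. Of 20 other interferon-gamma response genes 3 were higher (Ciita, Casp1 and Casp4) and 1 lower (Socs1), and of 29 type I interferon response genes 4 were higher and 4 lower.

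Germinal centres are where B cells divide and mature their antibodies, and cells with their markers had the lowest summed member level of the 14 classes. It was 39.9, 30.1, 224 and 63.0 CPM in libraries 1 to 4 against 210, 202, 242 and 241 CPM in B-like cells. Libraries 1, 2 and 4 lay below the B-like range and library 3, with 9 cells, lay inside it. Over all libraries the levels were 40.8 and 226 CPM. Of 10 members tested 0 were called higher and 5 lower (Gbp4, Gbp5, Gbp6, Irgm2 and Iigp1), where 8.36% of 10543 genes tested were higher and 11.6% lower, 19.9% in all (881 and 1220 genes, or 458 and 1703 with TMM scaling, a median shift of −0.13). The small libraries fixed part of these calls. At the B-like level, libraries 3 and 4 would have held 0.416 and 0.134 UMIs of Gbp6 and 0.144 and 0.052 of Iigp1. Of Irgm2 they would have held 1.55 and 0.511, so the counts of 0 for these genes carry little information. Gbp5 had 1 and 0 UMIs there, where the B-like level would give 2.21 and 0.936. Gbp4 had 3 and 1, where it would give 5.76 and 2.01. TMM scaling also called Gbp7 and Irgm1 lower. The member median was −2.08 and that of all genes −0.04.

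Gbp5 fell from 18.5 to 0.766 CPM on 3 UMIs (log2 ratio −4.60, counting interval −6.88 to −3.04), Gbp4 from 40.2 to 11.0 CPM (−1.87) and Irgm2 from 12.1 to 3.83 CPM (−1.66). Gbp6 had 0 UMIs, for which 3 counts over the class would give 0.766 CPM, against 2.67 CPM in B-like cells. Iigp1 had 1 UMI against 58 (log2 ratio −2.71, counting interval −8.04 to −0.17). Gbp7 (31.0 to 1.79 CPM), Irgm1 (59.3 to 6.64 CPM), Igtp (29.95 to 6.12 CPM), Gbp3 (20.5 to 6.38 CPM) and Gbp2 (10.2 to 4.08 CPM) had summed log2 ratios between −4.12 and −1.33 and were not called. In libraries 1 and 2 Irgm1 had 5 and 12 UMIs, where the B-like level would give 88.9 and 105, and Gbp7 had 3 and 1, where it would give 48.6 and 45.1. Library 3 kept all but 1 of the uncalled members from a call. Without it 9 members were called lower, where 1089 genes were higher and 1861 lower of 10336 tested. Library 4, with 8 cells, was then needed for every call. At the B-like level it would have held 0.572 UMIs of Gbp2, 1.72 of Gbp7, 1.52 of Igtp and 3.03 of Irgm1. It held 0, 0, 0 and 1, so the added calls rest on little information there. The 9 cells of library 3 carried a monocyte marker list of 5664 CPM, against 15.7, 22.5 and 21 CPM in libraries 1, 2 and 4, and the part of that signal in its member levels was not tested. With libraries of at least 10 cells alone, libraries 1 and 2, the rule could not be applied. Of 28 type I interferon response genes 3 were lower and 0 higher (list median −2.31), of 7 other GTPases 4 were lower and 0 higher, and of 14 receptor and signalling genes 0 were called in either direction. After thinning, 6.12% of 278 germinal centre B-like cells held a member UMI against 25.5% of B-like cells.

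CD8 T-like cells without Ccl5 and CD4 T-like cells showed 0 called members of 10, where 2.58% of 10574 genes tested were higher and 2.67% lower, 5.25% in all (273 and 282 genes, or 335 and 210 with TMM scaling, a median shift of 0.12). Member log2 ratios ran from −0.29 (Iigp1) to 0.87 (Gbp3). Without library 3 Gbp3 was called higher (1.25), and without library 4 Gbp5 (0.82). Of the pathway lists Casp4 was lower, Oas3 higher, and Ifi44 and Oas2 lower, and no receptor or signalling gene was called.

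CD8 T-like cells with Ccl5, gated by UMIs of this chemokine gene alone, had lower levels of Gbp2 and Iigp1 than those without. Of 10 members 0 were higher and 2 lower, where 3.57% of 10480 genes tested were higher and 1.74% lower, 5.31% in all. Gbp2 was 29.8, 21.9, 25.3 and 25.4 CPM against 46.7, 42.4, 49.1 and 44.5 CPM (log2 ratio −0.83, counting interval −1.07 to −0.60). Iigp1 was 12.5, 17.3, 3.80 and 7.58 CPM against 33.4, 35.1, 27.8 and 27.3 CPM (log2 ratio −1.59). Neither overlapped between classes. The 8 uncalled members had ratios from −0.98 (Gbp6) to −0.04 (Gbp3), and the member median was −0.63 against −0.01 over all genes tested. Without library 1 Gbp6 was called as well (−1.22), and under TMM scaling Gbp4 (−0.69).

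The receptor split in this comparison. Ifngr1 was higher with Ccl5 (130 against 68.9 CPM) and Ifngr2 lower (4.39 against 22.5 CPM). In all, 2 of 14 receptor and signalling genes were higher and 2 lower. Of 8 other GTPases 0 were higher and 4 lower, among them Tgtp1 (−1.52), Tgtp2 (−1.03) and Gbp10 (−1.91), whereas 0 of 28 type I interferon response genes and 0 of 21 other interferon-gamma response genes were called. Haemoglobin genes, a sign of red cell RNA, summed to 149, 9816, 7.59 and 22.2 CPM with Ccl5 against 377, 2422, 11.2 and 32.3 CPM without. Both members passed the rule in all 4 libraries, so leaving out library 2 could not remove their calls. The part of red cell RNA in the member levels was not tested. The monocyte marker list summed to 1494 CPM with Ccl5 and 333 CPM without, of which Ly6c2, a gene also found in activated CD8 T cells, gave 1453 and 325 CPM; its part in the member levels was not tested.

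**Figure D5:**
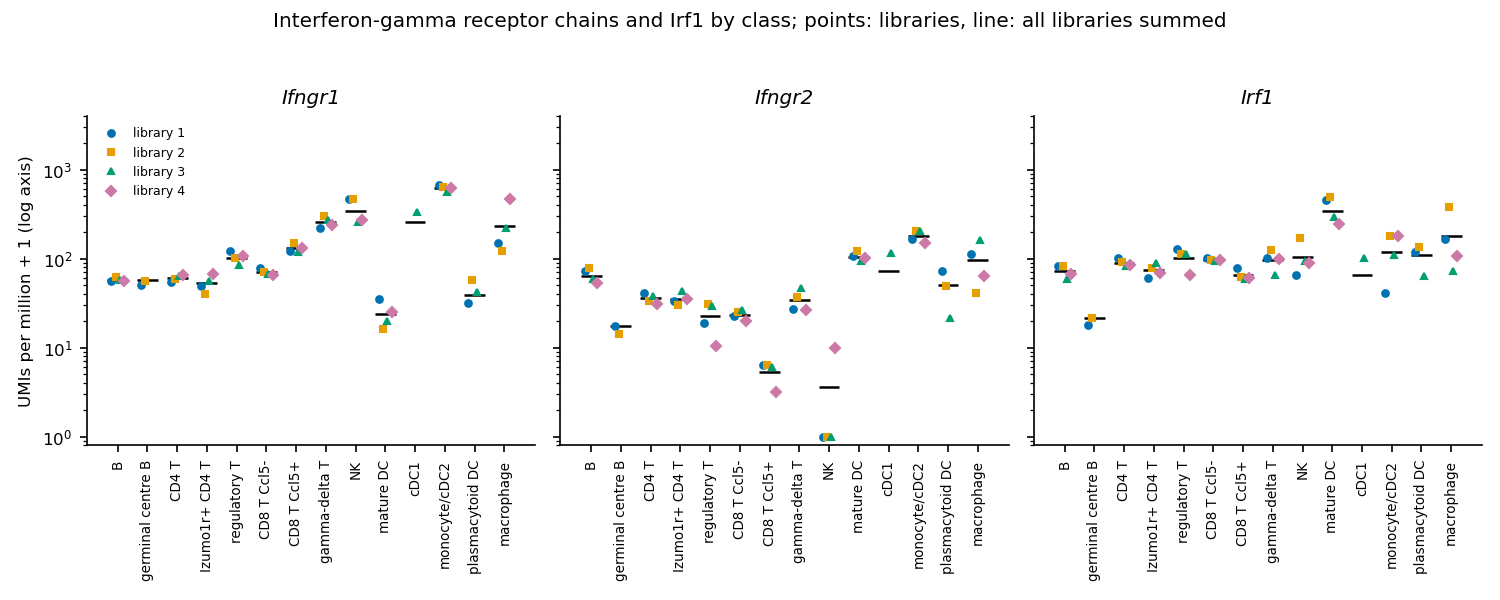
Level of the receptor chains Ifngr1 and Ifngr2 and of Irf1 by class, in CPM plus 1 on a log axis. Points are libraries with at least 10 cells and lines are all libraries summed. Ifngr1 is lowest in mature DC at 23.0 CPM, and Ifngr2 is low in CD8 T Ccl5+ and in NK cells.

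Regulatory T-like cells, marked by Foxp3, stood apart from CD4 T-like cells in Gbp3. Its level was 42.7, 34.3, 58.6 and 67.0 CPM against 3.58, 3.44, 8.39 and 4.68 CPM, with no overlap. The summed level was 10.0-fold higher (log2 ratio 3.33, counting interval 2.84 to 3.83). Gbp3 was the 1 member of 10 called higher and 0 were lower, where 9.83% of 9089 genes tested were higher and 2.2% lower, 12% in all (893 and 200 genes, or 533 and 485 with TMM scaling, a median shift of −0.35). A Gbp3 UMI was found in 23.4% of regulatory T-like and 2.83% of CD4 T-like cells, and in 4.71% and 0.875% after thinning, when its counts no longer sufficed for a call. Gbp5 (log2 ratio 1.35) and Gbp7 (0.77) were not called, though each was called when 1 library was left out, library 3 for Gbp5 (1.64) and library 2 for Gbp7 (0.92). The inflammatory caspase genes Casp4 (2.76) and Casp1 (1.97) and Icam1 (1.09) were higher among 19 other interferon-gamma response genes, 0 of 14 receptor and signalling genes were called, and of 25 type I interferon response genes 1 was higher and 2 lower. Haemoglobin genes summed to 8908 CPM in library 4 of regulatory T-like cells and to at most 181 CPM in the other libraries, and Gbp3 was higher in each library. The monocyte marker list summed to 123 CPM in regulatory T-like and 15.4 CPM in CD4 T-like cells, and its part was not tested.

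CD4 T-like cells with Izumo1r, the folate receptor 4 gene, were gated by its UMIs and the absence of Foxp3 UMIs. Against CD4 T-like cells they showed Gbp3 as the 1 called member of 10 (9.07, 10.1, 13.4 and 8.89 CPM, log2 ratio 0.98), where 1.13% of 9329 genes tested were higher and 0.268% lower, 1.39% in all (105 and 25 genes, or 87 and 38 with DESeq2 size factors, a median shift of −0.12). The call was lost under TMM scaling, where the ratio was 0.88. The regulatory T marker list summed to 176 CPM in the class with Izumo1r, 25.5 CPM in CD4 T-like and 1724 CPM in regulatory T-like cells, and haemoglobin genes summed to 4034 CPM with Izumo1r against 595 CPM. Their part in the Gbp3 level was not tested. Gamma-delta T-like cells showed Gbp3 (16.4, 3.30, 27.8 and 19.0 CPM, log2 ratio 1.78) and Gbp6 (16.4, 19.8, 32.5 and 21.1 CPM against 7.16, 9.88, 6.77 and 9.36 CPM, log2 ratio 1.49) as higher and 0 members as lower, where 7.18% of 8983 genes tested were higher and 1.71% lower, 8.89% in all (645 and 154 genes, or 310 and 424 with TMM scaling, a median shift of −0.38). Library 2 had too few Gbp3 UMIs to enter the rule, and its Gbp3 level overlapped with CD4 T-like cells. The Gbp6 call was lost under TMM scaling (1.10). Without library 1 or 3 Gbp3 could not be tested, and without library 4 it could not either while Gbp2 (0.93) and Irgm2 (1.09) were called higher. In gamma-delta T-like cells the receptor chain Ifngr1 was 222, 304, 271 and 236 CPM, above the 53.3, 58.4, 63.5 and 64.0 CPM of CD4 T-like cells. The monocyte marker list summed to 854 CPM in gamma-delta T-like cells, 489 of it Ly6c2, against 15.4 CPM in CD4 T-like cells, and the regulatory T list to 368 against 25.5 CPM. Their part in the member levels was not tested. The comparisons of regulatory, Izumo1r, gamma-delta and CD8 T-like cells share the CD4 T-like cells, which had the lowest median Gbp3 level of the 13 classes ordered (4.13 CPM), so their Gbp3 results are not independent of each other.

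NK-like cells, cytotoxic lymphocytes known for making interferon-gamma, had the highest level of its gene. Ifng was 48.4, 73.6, 170 and 71.3 CPM in them and at most 5.28 CPM in the summed level of any other class. They carried Ifngr1 at 338 CPM and only 1 UMI of Ifngr2, 2.60 CPM, against 68.9 and 22.5 CPM in CD8 T-like cells without Ccl5. Of 10 members 0 were called higher than in these and 2 lower (Igtp, log2 ratio −1.46, and Iigp1, −2.56 on 2 UMIs where the level of CD8 T-like cells would give 2.07 to 3.60 in each library, counting interval −5.60 to −0.70), where 7.51% of 10228 genes tested were higher and 11% lower, 18.5% in all (768 and 1124 genes). With TMM scaling the median over all genes shifted by −0.62, the counts became 337 and 1582 genes, and the rule called 5 members lower, Gbp2, Gbp6 and Irgm1 besides. Igtp was 16.1, 49.0, 30.9 and 17.8 CPM against 85.7, 84.3, 75.4 and 72.6 CPM, without overlap. Gbp7 was uncalled at 64.5, 135, 247 and 107 CPM against 89.5, 86.5, 87.2 and 80.0 CPM. Of 8 other GTPases 0 were higher and 3 lower, among them Tgtp2 (−3.47). Of 21 other interferon-gamma response genes 3 were higher, Casp1, Casp4 and H2-D1, and 1 lower. Isg15, Ifit1 and Ifi213 were among 4 type I interferon response genes that were lower of 28, with 0 higher. Of 14 receptor and signalling genes 4 were higher and 1, Ifngr2, was lower.

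Levels were also set against each other over the 14 classes, with CPM averaged over libraries and taken as log2(CPM + 10). Every library with a cell of the class had equal weight, also those with fewer than 10 cells, such as library 3 of germinal centre B-like cells (9 cells, 224 CPM over the members). The members share library depth and cells, so the coefficients are descriptions. Gbp2 and Gbp5 were the most alike pair (Pearson r = 0.87), followed by Gbp6 and Igtp (0.85) and by Gbp7 and Irgm2 (0.81), and Gbp3 and Igtp were the least alike (−0.28). Gbp7 and Gbp3, neighbours on chromosome 3, and Irgm2 and Igtp, whose windows share an identical run outside the motif matches, were not among the 3 most alike pairs. Among 5499 genes outside the family with at least 50 CPM in 1 class, those most like the summed members were Ifrd1, Usp25, Keap1, Tmem5, Tspyl1, Smpdl3a, Herc6, Tnip1, Lypla2 and H2-T22, with r between 0.87 and 0.83. Herc6 was the gene most like Gbp2 (0.95) and Axl the most like Gbp3 (0.93).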

How the data were processed

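Raw UMI counts were deposited by the authors as 1 sparse matrix of 31053 genes and 30824 barcodes; per the file headers it was made with cellranger 5.0.0, and per the submitters' processing notes the build was mm10. Whether reads were evened out between libraries is not given in the sources used here. Library totals were 39589629, 39733183, 40339336 and 53643414 UMIs in 7002, 6978, 7013 and 9831 barcodes. No column belonged to another series.

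Cells were kept and gated as stated above. B-like and T-like gates allowed no UMI of the other lineage's markers (Cd79b aside), and myeloid, dendritic and NK gates allowed at most 1 of each. Counts were summed per class and library. Libraries with fewer than 10 cells of a class entered the call rule although their levels are not given. Intervals are exact at 95% (Poisson, or Clopper-Pearson for shares and ratios) and, like the limit of 3 counts for 0, cover counting error only. Doublets were scored with Scrublet in scanpy 1.11.5 and left out as an alternative (105, 120, 228 and 474 calls in libraries 1 to 4).

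Named genes were all members and, per list and comparison, up to 3 called genes a direction with the largest median log2 ratio over libraries; Irf1, Ifng and the receptor chains were also named outside that rule, after their values were seen. The members, the lists and the comparisons were chosen with earlier results of these data known. Alternatives were TMM (edgeR 4.0.16) and DESeq2 1.42.0 size factors, thinning to 1500 UMIs, stricter cells, raised gates, a count minimum of 1, a 2-fold rule and leaving out each library; 3 more were added after seeing the data. Calculations used Python 3.11.15, numpy 2.4.6, pandas 2.3.3, scipy 1.17.1, matplotlib 3.10.9 and R 4.3.3. 1 gene of the signalling list is not reported here.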

Additional observations from a re-analysis of the deposited data

Results flagged for a closer look

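In 75 sets of 1 member in 1 class with at least 40 UMIs and 4 libraries, the gap of the most extreme library was set against the range of the 4. In 2 sets it passed the 95% critical value of Dixon's test, which chance passes in about 1 in 20. Gbp7 in CD4 T-like cells with Izumo1r stood at 58.6, 55.4, 98.2 and 59.0 CPM in libraries 1 to 4, with a gap of 0.916 of the range above the rest in library 3. Gbp4 in gamma-delta T-like cells stood at 65.4, 66.1, 81.1 and 67.4 CPM, with a gap of 0.875 of the range, also in library 3.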

How the results depend on the processing

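No paired analysis was possible because the library numbers of the barcodes carry no replicate number of the labels. Over all alternatives, 114 counts of called members stayed within 1.5 times the count reported and 38 did not. Of member ratios, 1240 kept their side of the rule, 43 became called, 28 lost the call, and no called ratio changed direction. These totals are no measure of stability, because some alternatives could not change some results. A call made in 4 libraries cannot be lost by leaving 1 out. Allowing no T or B marker UMI left the comparisons among T cell classes as they were. Requiring 10 cells per library changed no count in the 9 comparisons it could run. Uncalled ratios whose sign changed under TMM or DESeq2 scaling include Gbp2 in mature dendritic-like against monocyte-like cells. Leaving out called doublets changed no count. The 8 calls between B-like and CD4 T-like cells stayed 8 without any 1 library. Each of them rested on 4 libraries, so none could have been lost in this way.

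In brackets stand all genes called higher and lower, of all genes tested. With a 2-fold rule the member calls numbered 5 in B-like against CD4 T-like cells (1125 and 730 of 10872) and 1 in CD8 T-like cells with against without Ccl5 (220 and 79 of 10480). They numbered 3 in germinal centre B-like against B-like cells (454 and 776 of 10543). In CD4 T-like cells with against without Izumo1r they numbered 0 (40 and 5 of 9329), as between NK-like and CD8 T-like cells (419 and 1001 of 10228). With TMM scaling they numbered 0 in the Izumo1r comparison (88 and 33 of 9329), 5 in NK-like cells (337 and 1582 of 10228) and 1 in gamma-delta T-like against CD4 T-like cells (310 and 424 of 8983). With DESeq2 size factors they numbered 0 (87 and 38), 6 (255 and 2136) and 1 (291 and 498), of the same genes tested. After thinning they numbered 3 in germinal centre B-like cells (243 and 1154 of 8953) and 2 in type 1 against mature dendritic-like cells (114 and 383 of 1538). They numbered 0 in the Izumo1r (36 and 23 of 6552), regulatory T-like (248 and 96 of 5903) and gamma-delta T-like comparisons (228 and 90 of 5908). In mature dendritic-like against monocyte-like cells they also numbered 0 (322 and 219 of 1843), where 3 members were still tested. With stricter cells they numbered 1 with Ccl5 (302 and 160 of 9794) and 3 in germinal centre B-like cells (660 and 1024 of 9144). They numbered 0 in Izumo1r (109 and 36 of 8775) and 2 in regulatory T-like cells (769 and 182 of 8588). With raised gates they numbered 1 in CD8 against CD4 T-like cells (240 and 229 of 10343). In germinal centre B-like cells they numbered 9 (924 and 1715 of 10531). The gates reported above gave 881 and 1220 of 10543 there, so lower calls rose among all genes too. In regulatory T-like cells raised gates gave 2 member calls, both higher (692 genes higher of 7487). Member calls numbered 1 in gamma-delta T-like (438 and 118 of 7748) and 1 in macrophage-like against monocyte-like cells (163 and 358 of 2805). With a count minimum of 1 they numbered 1 in gamma-delta T-like (979 and 853 of 12403), 1 in macrophage-like (513 and 1101 of 8905) and 1 in plasmacytoid against type 1 dendritic-like cells (1455 and 436 of 8414). With no T or B marker UMI allowed they numbered 1 in NK-like cells (676 and 1250 of 10224). Thinning lowers the number of members tested. That number also fell from 10 to 8 with stricter cells in germinal centre B-like cells. With raised gates it fell from 10 to 9 in gamma-delta T-like cells. What moved the counts of calls was not tested otherwise.

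Without each library in turn the calls ranged from 0 to 1 in CD8 against CD4 T-like, 2 to 3 with Ccl5, 5 to 9 in germinal centre B-like, 1 to 1 in Izumo1r, 2 to 3 in NK-like, 1 to 2 for regulatory T-like, 4 to 5 for type 1 dendritic-like, 1 to 3 for gamma-delta T-like, 0 to 1 for macrophage-like and 5 to 5 in mature dendritic-like cells. Under the rule, leaving out a library can remove a call only where it rested on 3 libraries, so most of these counts could only stay or rise. The genes called moved as well. Where 9 members were called in germinal centre B-like cells, without library 3, 1089 genes were higher and 1861 lower of 10336 tested. With all libraries these were 881 and 1220 of 10543. Where 3 were called in gamma-delta T-like cells, without library 4, 752 genes were higher and 192 lower of 8579, against 645 and 154 of 8983. Depth limits the small myeloid classes: thinning left 35 of 69 macrophage-like cells.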

Other observations

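In regulatory T-like cells 84.4% held at least 1 member UMI and 44.8% held UMIs of 3 or more different members, against 71.5% and 18.4% of CD4 T-like cells. In mature dendritic-like cells 89.2% held at least 1, and in germinal centre B-like cells 33.3%, although these had the deepest median of the classes used (11093.5 UMIs). After thinning to 1500 UMIs, macrophage-like (71.4% of 35 cells) and monocyte-like cells (60% of 65 cells) held a member UMI most often among the 14 classes, and type 1 dendritic-like (12.9% of 31 cells) and germinal centre B-like cells (6.12% of 278 cells) least often.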
